A study of Rattus norvegicus with 24 samples.

Results

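The miRNAs described here are the 5 mature products of the miR-23a/27a/24-2 and miR-23b/27b/24-1 clusters of the rat: rno-miR-23a-3p, rno-miR-27a-3p, rno-miR-23b-3p, rno-miR-27b-3p and rno-miR-24-3p, written below without the species prefix. They were taken by name from the 753 mature miRNAs listed in the tables, adding up the loci of 1 name, and all 5 passed the low-count filter that left 136 miRNAs for testing. The libraries were small RNA libraries of serum, 1 for each male Wistar Kyoto rat, and fell into 4 groups. Fish oil ozone (5 libraries) and fish oil air (6) were rats fed a diet with 6% fish oil by weight and then exposed to ozone at 0.8 ppm, or to filtered air. Normal ozone (6) and normal air (6) were rats on the facility's rodent chow with the same exposures. Diets began at 4 weeks of age and ran for 8 weeks, and exposure followed on 2 days for 4 h each. Replicate 2 of fish oil ozone is not analysed here, and libraries are named by group and replicate. The fish oil diet is set against chow alone, so an effect of the oil and any other difference between the feeds cannot be told apart. Rats shared cages in pairs, and which rats did is not given in the sources used here. In serum, fewer cells giving off a miRNA and less of it from each cell cannot be told apart.

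Each cluster is copied from the genome as 1 precursor transcript, from which a miR-23, a miR-27 and a miR-24 hairpin are cut. A mature miRNA then pairs with messenger RNAs mainly through its seed, bases 2 to 8, and lowers their translation or stability. The family is known from blood vessels and from fat: in mice miR-23 and miR-27 promote vessel sprouting by repressing Sprouty2 and Sema6A, miR-27 represses adipogenesis through Pparg, and miR-24 acts on endothelial survival after cardiac injury. Serum miRNAs travel in vesicles and protein complexes shed by many tissues, so a level in serum names no tissue of origin.

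The sequences below show how little separates the clusters, with the seed in capitals (RefSeq, build GRCr8, 5′ to 3′). They are grouped by seed.
miR-23a-3p: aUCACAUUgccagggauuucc
miR-23b-3p: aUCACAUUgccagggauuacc
miR-27a-3p: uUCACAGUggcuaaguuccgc
miR-27b-3p: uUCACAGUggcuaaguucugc
miR-24-3p: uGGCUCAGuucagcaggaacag

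Counting from the 5′ end, miR-23b-3p differs from miR-23a-3p at 1 of 21 bases (U19A), and miR-27b-3p from miR-27a-3p at 1 of 21 (C19U). Both changes lie outside the seed, near the 3′ end. A read cut short before base 19 cannot be given to the a or the b form, and how the authors' counting treated reads that match both is not given in the sources used here. MiR-24-3p has the same sequence from both hairpins. Among 693 mature rat names, the seed of miR-23 was found in 2, that of miR-27 in 2 and that of miR-24 in 1, in each case these members. The miR-23 and miR-27 seeds themselves differ at 1 base (U7G). The seed of miR-128-3p, CACAGUG, equals bases 3 to 9 of miR-27.

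The a cluster is on chromosome 19 and the b cluster on chromosome 17 (rn5). Positions are as the files give them, which do not say whether counting starts at 0 or 1; stop minus start equalled the RefSeq mature length at 758 of 758 matched loci. MiR-23a-3p was listed at 36294815 to 36294836, miR-27a-3p at 36294979 to 36295000 and the chromosome 19 copy of miR-24-3p at 36295111 to 36295133. MiR-23b-3p was listed at 816092 to 816113, miR-27b-3p at 816334 to 816355 and the chromosome 17 copy of miR-24-3p at 816824 to 816846. With their 5p arms, the listed products of the a cluster spanned 354 bases and those of the b cluster 791. In the GRCr8 gene table the 3 b hairpins lie inside Aopep, an aminopeptidase gene (Mir24-1 also overlaps Fancc), while the 3 a hairpins overlap no other gene. The locus counts do not separate the sources of miR-24-3p: in all they held 4876 reads at chromosome 19 and 4900 at chromosome 17, and chromosome 19 took 42.1 to 56.3% in each library.

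Libraries held 23276 to 94264 miRNA counts, so a floor of 3 counts was 31.8 to 129 CPM (counts scaled to a common library size), and such floors cover counting error only. Depth differed by diet, with 23276 to 53694 miRNA counts in fish oil libraries and 33739 to 94264 in normal-diet libraries. The floor was 55.9 to 129 CPM on fish oil and 31.8 to 88.9 CPM on the normal diet. Levels below are CPM after TMM scaling, which sets libraries to a common scale through most of their miRNAs. Fold changes, their standard errors (SE) and adjusted p-values come from the edgeR quasi-likelihood test (two-sided, 1 mean per group, Benjamini-Hochberg over 136 miRNAs, threshold 0.05). Averaged over the exposures, that test called 36.8% of the miRNAs in fish oil against normal diet, and their median log2 fold change was +0.06.

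The b cluster products were more abundant relative to other serum miRNAs in rats on fish oil, while no a cluster product passed the test. Averaged over exposures, miR-27b-3p rose by a log2 fold change of +0.61 (SE 0.16, edgeR adjusted p = 0.00309), although it stood at -0.34 when libraries were scaled to all reads. MiR-23b-3p rose by +0.70 (SE 0.23, edgeR adjusted p = 0.0165), against -0.29 when scaled to all reads. The 2 of 5 members called were both higher, against 19.9% of all miRNAs tested called higher and 36.8% called in either direction, so the share of members called was close to the background. For the members the median log2 fold change was +0.14.

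MiR-27b-3p was the most abundant of the 4 miR-23 and miR-27 forms, 30th of 136 with a mean of 6550 CPM. In fish oil ozone it stood at 7295, 11507, 7833, 10307 and 5433 CPM. Fish oil air libraries ran from 5759 to 9220 CPM with a median of 7316. In normal ozone the lowest was 3200, the median 4300 and the highest 8367 CPM. Normal air libraries lay closer together, from 4718 to 6491 CPM with a median of 5733. All 11 fish oil libraries were above the mean of normal-diet rats of the same exposure, but the groups overlapped in both exposures. In ozone the overlap came from normal ozone 6, the 1 normal ozone library above 4742 CPM.

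By exposure, miR-27b-3p averaged 8475 ± 2429 CPM in fish oil ozone (SD, n = 5) and 4832 ± 1807 CPM in normal ozone (SD, n = 6). The log2 fold change was +0.81 (SE 0.23, edgeR adjusted p = 0.0108), and -0.17 with all reads as the scale. In ozone the test called 1 of the 5 members, higher, against 22.8% of all miRNAs in either direction and 12.5% higher. Without fish oil ozone 3 edgeR called 12 of 144 miRNAs in ozone (4 higher), in place of 31 of 136 (17 higher). Also without that library, in which miR-27b-3p was highest, its value was +0.60 with an edgeR adjusted p of 0.0859. Without normal ozone 6 it was +1.04 (edgeR adjusted p = 0.00131). In air the means were 7545 ± 1224 CPM in fish oil rats and 5668 ± 661 CPM in normal rats (SD, n = 6 each), a log2 fold change of +0.41 that did not pass (edgeR adjusted p = 0.19). In air edgeR called 0 of the 5 members against 5.88% of all miRNAs, as did DESeq2 and limma voom, with 1 member, miR-23b-3p, at an unadjusted p under 0.05. The 8 miRNAs edgeR called in air were 3 without fish oil air 4 or 5, 4 if either fish oil air 6 or normal air 5 was left out, 5 if normal air 6 was, and 15 if fish oil air 3 was. That miR-27b-3p passed in ozone and not in air does not show a difference between exposures: the interaction was +0.40 (SE 0.32, edgeR adjusted p = 0.916).

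MiR-23b-3p, cut from the same transcript as miR-27b-3p, was scarce, with 8 to 71 counts per library and a mean of 647 CPM (93rd of 136). Its fish oil ozone values were 492, 756, 1306, 895 and 577 CPM. In fish oil air it ranged from 416 to 1132 CPM with a median of 839. Normal ozone libraries lay between 363 and 756 CPM with a median of 531. In normal air the range was 215 to 851 CPM, with a median of 419. In all, 9 of 11 fish oil libraries exceeded the mean of their normal-diet counterparts, and the groups overlapped.

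Means of miR-23b-3p were 805 ± 320 CPM in fish oil ozone (n = 5) and 536 ± 143 CPM in normal ozone (n = 6), ± SD. In air they were 815 ± 230 CPM in fish oil rats and 460 ± 226 CPM in normal rats (SD, n = 6 each). The log2 fold changes of +0.59 in ozone (edgeR adjusted p = 0.193) and +0.81 in air (edgeR adjusted p = 0.102) did not pass singly. The averaged call was lost without fish oil ozone 4 (+0.54, edgeR adjusted p = 0.0766), without fish oil air 6 (+0.58, edgeR adjusted p = 0.0575) and without normal air 5 (+0.58, edgeR adjusted p = 0.0584). The call in air was gained without normal air 3 (+1.09, edgeR adjusted p = 0.0306).

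**Figure D1:**
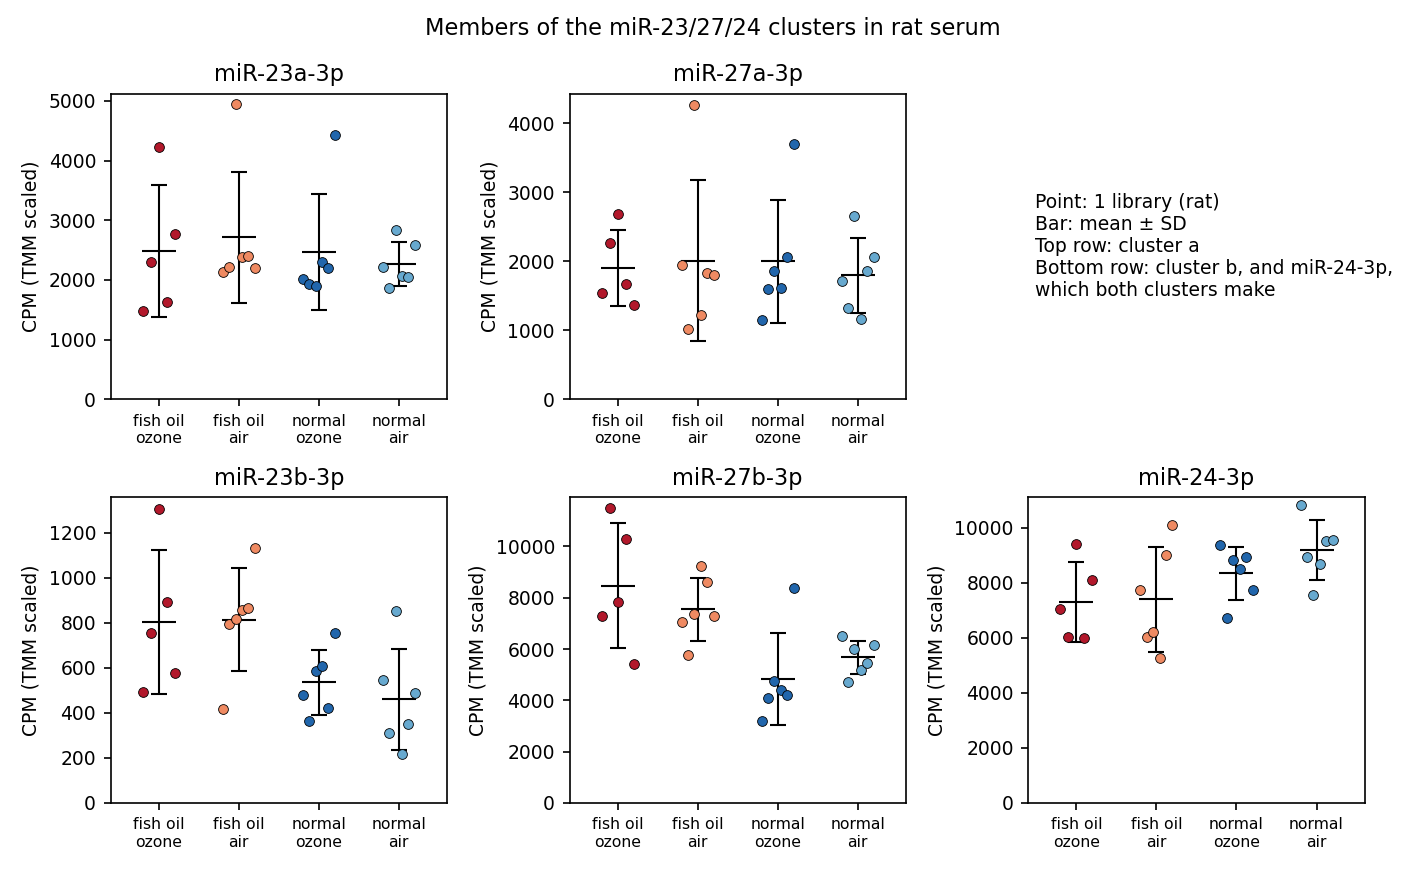
Level of each of the 5 miRNAs in every library (vertical axis, CPM after TMM scaling, from 0) by group (horizontal axis, fish oil ozone, fish oil air, normal ozone, normal air), with points for rats and bars for mean ± SD. For miR-27b-3p the fish oil means of 8475 and 7545 CPM stand above the normal means of 4832 and 5668 CPM, whereas miR-23a-3p and miR-27a-3p have like means in all groups; single high points mark fish oil air 3 and normal ozone 6.

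MiR-23a-3p, which in human cells represses glutaminase, did not pass in either exposure. It was 47th of 136, with 42 to 246 counts per library. Its fish oil ozone levels were 1478, 2301, 4232, 1634 and 2762 CPM. The other groups had medians of 2295 CPM in fish oil air, 2114 CPM in normal ozone and 2143 CPM in normal air. Of 11 fish oil libraries 5 were above the normal mean, and the groups overlapped throughout. Averaged over exposures, its log2 fold change was +0.14 (SE 0.20, edgeR adjusted p = 0.623), with +0.02 in ozone and +0.25 in air.

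MiR-27a-3p shares its seed with miR-27b-3p and was the less abundant form, 54th of 136. In fish oil ozone it stood at 1539, 2269, 2679, 1673 and 1366 CPM. Medians were 1816 CPM in fish oil air, 1734 CPM in normal ozone and 1782 CPM in normal air. The averaged log2 fold change was +0.05 (SE 0.22, edgeR adjusted p = 0.872), with -0.07 in ozone and +0.16 in air. Of the fish oil libraries 6 of 11 were above the normal mean, and the groups overlapped.

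MiR-24-3p, made by both clusters, was the most abundant member, 24th of 136 with a mean of 8093 CPM. Fish oil ozone libraries had 7049, 6016, 9409, 5990 and 8104 CPM. Fish oil air ran from 5261 to 10121 CPM (median 6984), normal ozone from 6712 to 9361 CPM (median 8675) and normal air from 7550 to 10844 CPM (median 9232). In fish oil rats 9 of 11 libraries lay below the normal mean, with the groups overlapping. On this scale the difference did not pass: the averaged log2 fold change was -0.25 (SE 0.14, edgeR adjusted p = 0.151), with -0.19 in ozone and -0.31 in air. When libraries were scaled to all reads, miR-24-3p was the member that passed, at -1.11 averaged over exposures (edgeR adjusted p = 0.00189), -1.11 in ozone (edgeR adjusted p = 0.0422) and -1.11 in air (edgeR adjusted p = 0.0338).

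The median of all miRNAs itself moved with the choice of scale. The read total behind the authors' RPM values was 2268530 to 7729950 in fish oil libraries and 2243920 to 7367250 in normal-diet libraries. Their miRNA counts were 23276 to 53694 and 33739 to 94264. That read total gives the other scale. On it the median of all 136 miRNAs shifted from near 0 to -0.87 averaged over exposures, -0.96 in ozone and -0.78 in air. Averaged over exposures, 1 miRNA was then called higher and 70 lower, against 27 higher and 23 lower by TMM. Measured from this median, miR-27b-3p was 0.53 above and miR-23b-3p 0.58 above averaged over exposures, while miR-24-3p stood at -0.24. On the TMM scale the same distances were 0.55, 0.64 and -0.31. Averaged over exposures, miR-23a-3p and miR-27a-3p lay nearer the median on both scales (0.07 and -0.01 by TMM, 0.10 and 0.004 by all reads). In air they were 0.17 and 0.08 above it by TMM, and 0.19 and 0.11 above by all reads.

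**Figure D2:**
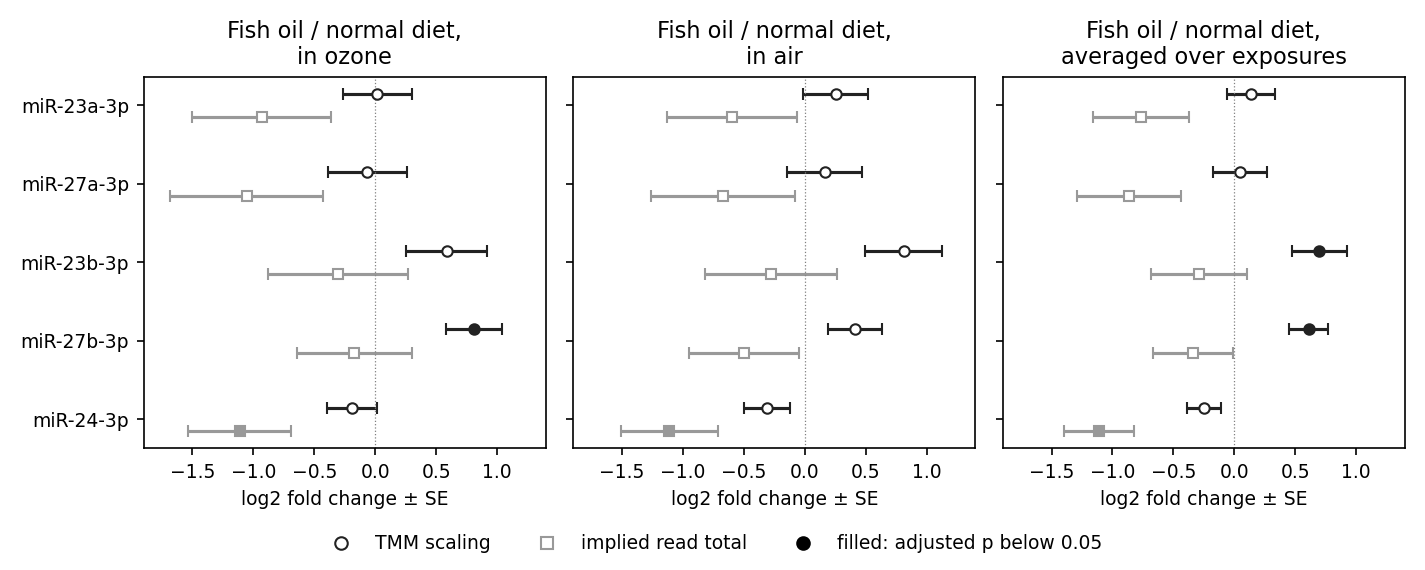
Log2 fold change of fish oil over normal diet (horizontal axis, with bars of 1 SE) for the 5 miRNAs (rows), in ozone, in air and averaged over exposures (panels); circles use TMM and squares all reads (the implied read total), and filled symbols have an adjusted p below 0.05. By TMM the averaged miR-27b-3p and miR-23b-3p points are to the right of 0 (+0.61 and +0.70) and miR-24-3p to the left (-0.25), while scaling to all reads puts every member below 0 (-0.34, -0.29 and -1.11 for these).

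Ratios between members within a library do not depend on the scale, and they bear directly on whether the clusters moved apart. Each was a log2 ratio of counts with 0.5 added to both, and 5 ratios in 7 contrasts were tested by exact permutation (two-sided, adjusted over all 35; interactions by 100000 permutations of residuals). The smallest p that 5 against 6 rats allow is 0.00216.

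The ratio of miR-27a-3p to miR-27b-3p fell with fish oil in ozone. Its log2 values were -2.23, -2.33, -1.54, -2.61 and -1.98 in fish oil ozone. In normal ozone they ran from -1.47 to -1.02 with a median of -1.35. The groups did not overlap, and all 5 fish oil rats were below the normal mean. The difference was -0.84 on the log2 scale, or 0.559-fold (exact permutation p = 0.00216, the smallest this design allows, adjusted p = 0.0379). In air it was -0.34 (exact permutation p = 0.318), with values of -2.91 to -0.78 in fish oil rats and -2.15 to -1.18 in normal rats. Averaged over exposures the difference of -0.59 (10 of 11 rats lower) did not pass after adjustment (exact permutation p = 0.00631, adjusted p = 0.0552). The interaction was -0.50 (permutation p = 0.193, adjusted p = 0.519). Without any 1 of the 11 rats the ozone difference was between -0.99 and -0.72, but its adjusted p was then 0.0538 to 0.0863 by exact permutation. The smallest exact permutation p was then 0.00476 or 0.00794, so these fits cannot show whether the pass rests on 1 rat. Without fish oil air 3, whose ratio of -0.78 was the highest of all, the averaged difference was -0.72 and passed (exact permutation, adjusted p = 0.00328).

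The ratio of miR-23a-3p to miR-23b-3p pointed the same way but did not pass. It was 1.56, 1.59, 1.69, 0.85 and 2.23 on the log2 scale in fish oil ozone, and 1.70 to 2.54 (median 2.21) in normal ozone. In air it was 0.95 to 2.57 (median 1.46) in fish oil rats and 1.73 to 3.19 (median 2.45) in normal rats. The differences were -0.57 in ozone (exact permutation p = 0.0411, adjusted p = 0.202) and -0.70 in air (exact permutation p = 0.0649, adjusted p = 0.207). Averaged, the difference was -0.63, or 0.644-fold, with 9 of 11 rats lower (exact permutation p = 0.00495, adjusted p = 0.0552). It passed without fish oil ozone 6 (adjusted p = 0.0315), fish oil air 1 (0.037), fish oil air 3 (0.0235) or normal air 3 (0.0195), all by exact permutation.

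**Figure D3:**
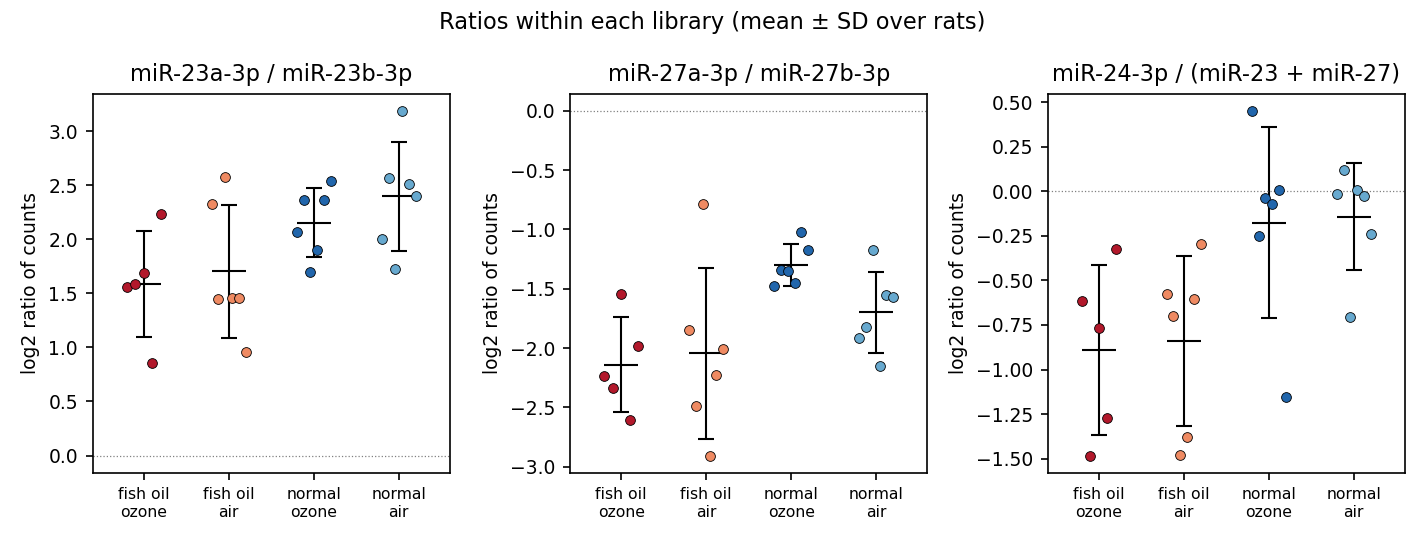
Log2 ratio of counts in each library (vertical axis) by group (horizontal axis) for miR-23a to miR-23b, miR-27a to miR-27b, and miR-24 to the sum of the miR-23 and miR-27 forms; points are rats and bars are mean ± SD. In ozone the miR-27 ratio of every fish oil rat (-2.61 to -1.54) is below that of every normal rat (-1.47 to -1.02), while the other ratios overlap between groups.

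MiR-24-3p fell relative to the summed miR-23 and miR-27 forms. MiR-27b-3p is the largest part of that sum, with a mean of 311 counts against 124, 98 and 31.8 for miR-23a-3p, miR-27a-3p and miR-23b-3p. The ratio therefore also moves with miR-27b-3p, and miR-24-3p by itself did not pass (-0.25, edgeR adjusted p = 0.151). The log2 ratio was -0.62, -1.48, -0.77, -1.27 and -0.32 in fish oil ozone, against -1.16 to 0.45 (median -0.05) in normal ozone. In air it was -1.48 to -0.29 (median -0.65) in fish oil rats and -0.71 to 0.12 (median -0.02) in normal rats. All 11 fish oil rats lay below the normal mean of their exposure, although the groups overlapped. The averaged difference was -0.71, or 0.613-fold (exact permutation p = 0.00159, adjusted p = 0.0379). In ozone it was -0.72 (exact permutation p = 0.0541, adjusted p = 0.202) and in air -0.69 (exact permutation p = 0.0152, adjusted p = 0.106). The averaged adjusted p rose to between 0.0538 and 0.0863 (exact permutation) in 9 of 23 fits that left out 1 library, namely fish oil ozone 1, 3, 4 or 5 or normal ozone 1, 2, 3, 4 or 5. The pass shared its adjusted p with the miR-27a to miR-27b ratio in ozone. With 1 ozone rat fewer, the smallest exact permutation p of that ratio was 0.00476 or 0.00794. These fits therefore cannot show whether the pass rests on 1 rat. Without fish oil ozone 1 the averaged difference was -0.74, larger than with all libraries. Without normal air 3 the air difference was -0.81 and passed (exact permutation, adjusted p = 0.0253).

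Within each cluster no diet difference in the proportion of miR-27 to miR-23 passed. The ratio of miR-27a-3p to miR-23a-3p had an averaged difference of -0.06 (exact permutation p = 0.678, adjusted p = 0.902). For miR-27b-3p to miR-23b-3p the averaged difference was -0.11 (exact permutation p = 0.62, adjusted p = 0.869). By exposure that ratio differed by +0.28 in ozone, with 4 of 5 fish oil rats higher (exact permutation p = 0.305, adjusted p = 0.704), and by -0.49 in air, with 5 of 6 fish oil rats lower (exact permutation p = 0.13, adjusted p = 0.379). The within-group SD of the miR-27a to miR-23a ratio was 0.37 on the log2 scale, and that of the miR-27b to miR-23b ratio 0.48. A p that misses the threshold does not show that these ratios were equal.

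No member passed the test for ozone on either diet. By edgeR, 0 of 5 passed on the normal diet, on fish oil or averaged over diets, 0 had an unadjusted p under 0.05 in these contrasts, and DESeq2 and limma voom also called 0. The edgeR background was 0% on each diet and 0.735% averaged. Of 136 miRNAs DESeq2 called 1 on the normal diet, 0 on fish oil and 1 averaged, and voom 0 in each. For the interaction of diet and ozone edgeR, DESeq2 and voom each called 0 of 5, with 0 at an unadjusted p under 0.05 and a background of 0%. On the normal diet the log2 fold changes of ozone over air were +0.12 for miR-23a-3p, +0.15 for miR-27a-3p, +0.21 for miR-23b-3p, -0.23 for miR-27b-3p and -0.14 for miR-24-3p. On fish oil they were -0.12, -0.08, -0.02, +0.17 and -0.02 in the same order of miRNAs. SEs of these values were 0.19 to 0.33.

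Among ratios, ozone gave no adjusted p under the threshold. The nearest were on the normal diet. There the miR-27a to miR-27b log2 ratio averaged -1.30 ± 0.17 in ozone and -1.70 ± 0.34 in air (SD, n = 6 each), a difference of +0.40 with 6 of 6 ozone rats above the air mean (exact permutation p = 0.0325, adjusted p = 0.189). The miR-27b to miR-23b log2 ratio averaged 3.12 ± 0.31 in ozone and 3.72 ± 0.56 in air, a difference of -0.60 (exact permutation p = 0.0476, adjusted p = 0.202). Without normal air 3 they were +0.50 and -0.78 and passed (exact permutation, adjusted p = 0.0189 for each). The interaction for miR-27b to miR-23b was +0.77 (permutation p = 0.0577, adjusted p = 0.202).

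Of the 7 other products listed at these hairpins, 2 were abundant enough to test, both from the a cluster and both 5p arms. They are shown because they are counted apart from the 3p forms and mark the a cluster alone, with the seed in capitals.
miR-27a-5p: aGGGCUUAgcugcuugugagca
miR-24-2-5p: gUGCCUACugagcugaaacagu
miR-24-1-5p: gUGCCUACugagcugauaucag

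MiR-24-1-5p, from the b cluster, differs from miR-24-2-5p at 5 bases (A17U, C19U, A20C, G21A and U22G), so these arms tell the miR-24 hairpins apart where the shared miR-24-3p cannot. Over all 23 libraries miR-24-2-5p had 697 counts and miR-24-1-5p 1. MiR-27a-5p had 306 counts and miR-27b-5p 10. MiR-23a-5p had 16 counts, miR-23b-5p 0 and miR-3074, which overlaps the miR-24-1 hairpin, 1.

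MiR-24-2-5p stood at 123, 690, 405, 700 and 455 CPM in fish oil ozone, with a median of 439 CPM in fish oil air, 581 CPM in normal ozone and 827 CPM in normal air. Of 11 fish oil libraries 9 were below the normal mean. The averaged log2 fold change was -0.55 (SE 0.23, edgeR adjusted p = 0.062), and -1.41 with all reads as the scale (edgeR adjusted p = 0.00134). DESeq2 gave -0.56 and passed (DESeq2 adjusted p = 0.0251). The TMM value passed in 11 of 23 fits that left out 1 library, with values of -0.70 to -0.59 and edgeR adjusted p of 0.0176 to 0.0491. These left out fish oil ozone 3, 5 or 6, fish oil air 1 or 5, normal ozone 1, 4 or 5, or normal air 1, 2 or 6.

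MiR-27a-5p had 0 to 29 counts per library. Its fish oil ozone counts were 8, 0, 2, 1 and 13, against 10 to 29 in the normal ozone libraries, which were mostly deeper. In CPM these groups overlapped, at 0 to 395 in fish oil ozone and 180 to 438 in normal ozone. Fish oil air counts were 5 to 24 and normal air counts 10 to 26. The averaged log2 fold change was -0.45 (SE 0.37, edgeR adjusted p = 0.359), and -1.45 on the scale of all reads (edgeR adjusted p = 0.00422). In ozone the value was -0.97 (edgeR adjusted p = 0.195), and -1.76 without fish oil ozone 6 (edgeR adjusted p = 0.0387). With all libraries it passed by limma voom (-1.65, voom adjusted p = 0.0377), and with all reads as the scale (-2.22, edgeR adjusted p = 0.0094). Neither arm was called by edgeR in any contrast on the TMM scale with all libraries, where the unadjusted edgeR p of miR-24-2-5p was 0.0237 averaged over exposures and 0.0202 in air. Ratios of miR-27a-5p to miR-27a-3p and of miR-24-2-5p to miR-24-3p, which were added after values had been seen, also gave none past the threshold (averaged differences -0.89 and -0.33, exact permutation, adjusted p = 0.479 and 0.505).

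**Figure D4:**
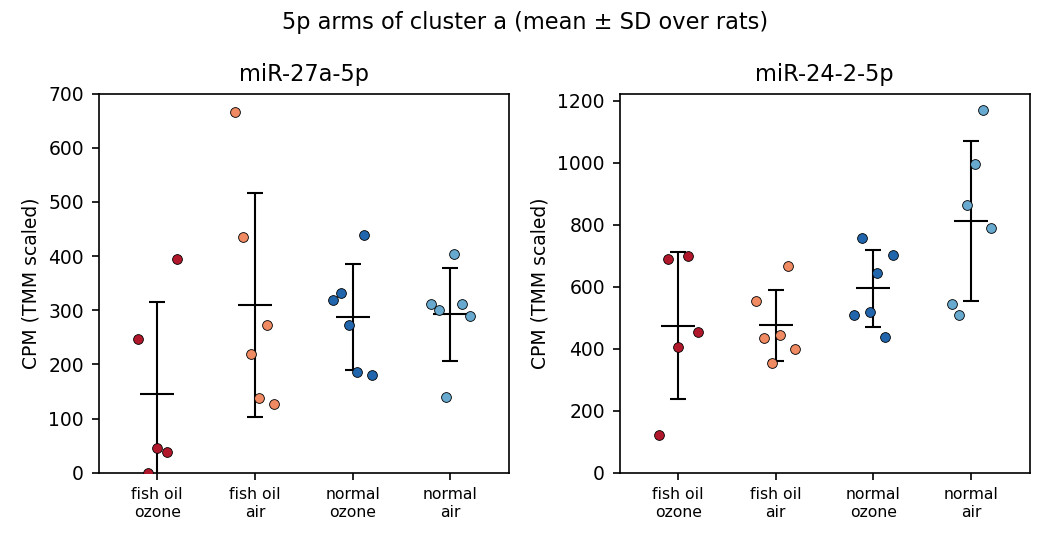
Level of the 2 tested 5p arms of the a cluster in every library (vertical axis, CPM after TMM scaling, from 0) by group (horizontal axis); points are rats and bars are mean ± SD, cut at 0. In fish oil ozone miR-27a-5p has 3 libraries with 0 to 2 counts, and miR-24-2-5p averages 475 CPM in fish oil ozone and 476 CPM in fish oil air, against 595 CPM in normal ozone and 812 CPM in normal air, with neither arm past the threshold by edgeR on the TMM scale.

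Among pairs of members, the a cluster products tracked each other most closely across the 23 libraries. Likeness was measured as the SD, over libraries, of the difference in log2 CPM between a member and each of the 135 other tested miRNAs. MiR-23a-3p and miR-27a-3p were each other's nearest of 135, with an SD of 0.35. Next to miR-23a-3p came miR-19b-3p, miR-148b-3p and miR-16-5p (0.42, 0.44 and 0.47), and next to miR-27a-3p miR-186-5p, miR-148b-3p and miR-16-5p (0.42, 0.44 and 0.46). Points share their libraries and scaling, so these are descriptions.

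The b cluster products were less tightly joined. For miR-23b-3p the nearest was miR-126a-5p, an endothelial miRNA (0.42), with miR-27b-3p second (0.49) and miR-150-5p and miR-146a-5p after it (0.51 and 0.55). For miR-27b-3p the nearest were miR-30e-5p, miR-29a-3p and miR-30a-5p (0.27, 0.33 and 0.33), and miR-23b-3p was 12th. MiR-24-3p followed miR-25-3p, let-7d-5p and miR-146b-5p (0.31, 0.32 and 0.39). The other members were 28th to 81st for it, with miR-23b-3p the farthest. Low counts widen such differences: counting alone gives an SD of 0.29 for miR-23b-3p, 0.15 for miR-23a-3p, 0.17 for miR-27a-3p, 0.09 for miR-27b-3p and 0.08 for miR-24-3p, on the log2 scale.

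Within groups the members differed in how much rats varied. The SD of log2 CPM was 0.26 for miR-24-3p and 0.34 for miR-27b-3p, below the median of 0.53 over all tested miRNAs. It was 0.45 for miR-23a-3p, 0.50 for miR-23b-3p and 0.54 for miR-27a-3p. Together the 5 members took 2.12 ± 0.45% of miRNA counts in fish oil ozone (n = 5), 2.27 ± 0.66% in fish oil air, 1.82 ± 0.45% in normal ozone and 1.83 ± 0.32% in normal air (SD, n = 6 each). The averaged difference of fish oil from normal diet was +0.37 points (exact permutation p = 0.0752, adjusted p = 0.527).

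Other vessel miRNAs were called in both directions on the TMM scale, and lower only with all reads as the scale. In a list of 16 miRNAs of endothelium and angiogenesis, 10 were tested and, averaged over exposures, 3 rose, 2 fell and 5 did not pass, against 36.8% of all miRNAs called (19.9% higher, 16.9% lower), with a median log2 fold change of -0.01 against +0.06 over all miRNAs. Scaled to all reads, 0 were higher and 5 lower, with a median of -0.94, against 70 of 136 lower and a median of -0.87 over all miRNAs. The 3 higher were miR-126a-3p (+1.06) and miR-126a-5p (+0.64), both arms of an endothelial hairpin that favours vessel integrity, and miR-221-3p (+0.45), which restrains endothelial migration; scaled to all reads these were -0.002, -0.30 and -0.42, and did not pass. The 2 lower were miR-17-5p (-0.68) and miR-92a-3p (-1.09), products of the miR-17-92 cluster, and both were also lower with all reads (-1.63 and -1.98), joined there by miR-130a-3p (-0.97), miR-20a-5p (-1.42) and miR-210-3p (-1.04). In ozone alone 0 were higher and 2 lower, against 12.5% and 10.3% of all miRNAs.

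Of 16 miRNAs listed for lipid metabolism and adipogenesis, 12 were tested. Averaged over exposures 2 rose, 2 fell and 8 did not pass, against 36.8% of all miRNAs called, with a median of +0.11. Scaled to all reads, 0 were higher and 6 lower, with a median of -0.79, against 70 of 136 lower and a median of -0.87 over all miRNAs. MiR-143-3p, which favours adipocyte differentiation and is abundant in smooth muscle, rose (+1.07), as did miR-144-3p, a red cell miRNA that represses the cholesterol exporter Abca1 (+0.98); with all reads they stood at +0.21 and +0.08 and did not pass. MiR-128-3p, whose seed lies within miR-27 shifted by 1 base, fell (-1.18, and -2.06 with all reads), and so did miR-185-5p (-0.80, and -1.77). In ozone alone 2 were higher and 1 lower, against 12.5% and 10.3% of all miRNAs, and in air alone 0 were higher and 2 lower, miR-128-3p and the liver miRNA miR-122-5p (-2.06), against 0.735% and 5.15% of all miRNAs.

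Shares of marker miRNAs of possible sources of serum RNA are given beside these results. Red cell markers, with 4 of 5 listed miRNAs counted, took 1.01 to 2.33% of counts in fish oil ozone, 1.43 to 3.32% in fish oil air, 0.959 to 2.23% in normal ozone and 1.02 to 2.02% in normal air. The averaged test called 2 of the 4, miR-144-3p and miR-144-5p, both higher by TMM (+0.98 and +1.32). Of all miRNAs 36.8% were called and 19.9% were higher by TMM. With all reads neither miR-144 arm was called (+0.08 and +0.57). On that scale 1 of the 4 was called, lower: miR-16-5p (-0.87, edgeR adjusted p = 0.0205), against 70 of 136 miRNAs lower. MiR-16-5p had a mean of 841 counts per library. Platelet and white cell markers (6 of 6 counted) took 4.13 to 14.9% and 4.64 to 15.9% in fish oil ozone and air, against 21 to 31.1% and 18.9 to 31.7% in normal ozone and air. Of the 5 tested, averaged over exposures by TMM, 1 was higher (miR-126a-3p), 2 were lower and 2 did not pass, with a median of +0.08. Of all miRNAs 19.9% were higher and 16.9% lower. With all reads 0 of the 5 were higher and 2 lower, with a median of -0.73, against 70 of 136 miRNAs lower. On that scale miR-126a-3p stood at -0.002 and did not pass. The 2 lower by TMM were miR-191a-5p (-1.54), the list's most counted miRNA with a mean of 9517 counts per library, and miR-223-3p (-0.80). Both were also lower with all reads (-2.38 and -1.78). Smooth muscle markers (3 of 3) took 20.7 to 34.1% and 15.4 to 35.8%, against 8.70 to 16.3% and 8.24 to 22.1%, in the same order of groups, and both that were tested rose by TMM (miR-143-3p, +1.07, and miR-145-5p, +1.22) and did not pass with all reads (+0.21 and +0.09). Liver markers (3 of 3) took 6.02 to 12.6% and 3.41 to 8.30%, against 5.20 to 13.5% and 5.72 to 18%. By TMM 1 of the 3 was called, lower (miR-192-5p, -0.62). With all reads 3 of 3 were lower, against 70 of 136 of all miRNAs. Striated muscle markers (3 of 3) took at most 0.447% in any library, and 0 of 3 were called by TMM averaged over exposures. With all reads 1 of 3 was called, lower (miR-206-3p, -1.24, edgeR adjusted p = 0.0287). The part of the white cell, platelet and smooth muscle markers in the results above was not tested. A fit with the share of miR-451-5p as a covariate gave +0.54 for miR-27b-3p (edgeR adjusted p = 0.00547) and +0.60 for miR-23b-3p (edgeR adjusted p = 0.0327), averaged over exposures. MiR-451-5p is only 1 of the listed red cell markers, at 79.6 to 2049 CPM, and the part of red cell RNA as a whole was not tested.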

How the data were processed

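The deposited table of expected counts gives reads per mature miRNA locus, and 50 of its 832 loci hold fractions. The authors' other deposited table holds RPM. In each library the RPM equal the counts divided by 1 read total, plus 0.0001, to within 0.0359 reads. That total is not stated and was worked out from both tables. The submitters' processing notes name Bowtie 1.0.0, Partek and bcl2fastq, and build rn5. Annotation, filters and the handling of reads that match several loci are not stated there. Columns were joined to samples by animal number, which runs in blocks by group, so it pairs no rats and a batch along it cannot be told apart from the groups. 

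Loci of 1 name were summed and rounded. Low counts were removed with filterByExpr (minimum count 10, minimum total 15), scaling was by TMM, and tests used edgeR 4.0.16 (robust quasi-likelihood) in R 4.3.3, checked on simulated counts. Alternatives used DESeq2 1.42.0 and limma 3.58.1. Ratios were tested with exact permutation by full enumeration in numpy 2.4.6, with labels permuted within exposure for averaged contrasts. Sequences were matched by name to RefSeq tables, which held all 5 members. The members, the lists and the 5p arm ratios were chosen with earlier results of these data known. Members are always named; other listed miRNAs are named where they passed.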

Additional observations from a re-analysis of the deposited data

Results flagged for a closer look

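For miR-23a-3p, fish oil air 3 had 4944 CPM, far above the other 5 libraries of its group at 2136 to 2400 CPM. The same library had 4261 CPM of miR-27a-3p, where the others had 1014 to 1942 CPM. In normal ozone, replicate 6 stood apart for 3 members: miR-23a-3p at 4426 CPM (others 1904 to 2305), miR-27a-3p at 3707 CPM (others 1146 to 2066) and miR-27b-3p at 8367 CPM (others 3200 to 4742). These were the 5 groups marked by Dixon's test of 60 examined, and chance marks about 1 in 20. Each of these libraries also had the highest miR-451-5p, a red cell miRNA, of its group, at 2049 CPM in fish oil air 3 and 738 CPM in normal ozone 6. Normal ozone 3 was close behind at 707 CPM, yet had the lowest miR-23a-3p of its group (1904 CPM). Normal air 6, not marked for any member, had more miR-451-5p (855 CPM) than normal ozone 6. The part of red cell RNA in these high values was not tested. Without fish oil air 3, or without normal ozone 6, edgeR still called 2 members averaged over exposures, 1 in ozone and 0 in air.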

How the results depend on the processing

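Of 2869 recomputed values for 112 results, 2785 were counted as unchanged. A change of sign counted as a change only where the main or the recomputed value passed the threshold. Values that did not pass could therefore change direction within that count. Without fish oil air 3, miR-27a-3p in air went from +0.16 to -0.19. Scaling to all reads took the averaged miR-23a-3p from +0.14 to -0.77 and miR-27a-3p from +0.05 to -0.86. With fish oil against normal diet, scaling to all reads reversed miR-23b-3p averaged over exposures (-0.29), miR-27b-3p averaged (-0.34) and miR-27b-3p in ozone (-0.17). Limma on the authors' RPM did so too (-0.14, -0.24 and -0.092). By construction both scales follow all reads, and the median miRNA then falls by 0.87 (all reads) or 0.74 (RPM) averaged. Members called in air went from 0 to 1 with each of these scales, the member being miR-24-3p. Averaged over exposures 1 of 5 was called in place of 2: miR-24-3p with all reads and with RPM, and miR-27b-3p with no low-count filter. In ozone 0 were called with no low-count filter, in place of 1; leaving the filter out adds miRNAs to the adjustment. Over all miRNAs edgeR called 8 in air, against 38 with all reads, 32 with RPM, 15 with DESeq2, 5 with voom, 14 with the miRNA total as scale (median of all +0.29 in air), 12 with no filter and 15 with the miR-451-5p covariate; with RPM 48 in place of 31 were called in ozone. With a pseudocount of 2 the averaged miR-23a to miR-23b difference was -0.62 and passed (exact permutation, adjusted p = 0.0467).

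Leaving out each library in turn, members called were 0 to 1 in air, 0 to 1 in ozone and 1 to 2 averaged. The miR-23a to miR-23b difference ranged from -0.72 to -0.54 averaged, that of miR-27a to miR-27b from -0.99 to -0.72 in ozone, from -0.72 to -0.51 averaged and, for ozone on the normal diet, from 0.31 to 0.50. That of miR-24 ranged from -0.80 to -0.63 averaged and from -0.81 to -0.57 in air, and that of miR-27b to miR-23b under ozone on the normal diet ranged from -0.78 to -0.44. With 1 rat fewer in ozone the smallest exact permutation p is 0.00476 or 0.00794. The mean over loci of miR-24-3p was not run, since its loci differ in counts, and fits of the compared groups alone exist for no averaged contrast or interaction. No paired analysis was possible because replicate and animal numbers pair no rats. Low depth limits miR-23b-3p and miR-27a-5p most.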
